A study of Mus musculus with 35 samples.

Results

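The genes described here are 8 genes of cholesterol synthesis, namely the enzymes *Hmgcs1*, *Idi1*, *Fdft1*, *Sqle*, *Lss*, *Cyp51* and *Dhcr7* and the transcription factor gene *Srebf2*. They were chosen by name from the 53465 genes of a count table, each name belonged to 1 gene identifier, and all 8 passed the filter on low counts in every comparison. The set was put together under the heading of cholesterol synthesis and uptake, but none of the 8 encodes an uptake receptor, so that uptake genes are given separately as a list of 12 genes. RNA-seq was done on 35 libraries of mKate2+ tumor cells sorted from mice that had received KC-shSmad4 cells, mouse PDAC cells that carry a Dox-inducible shRNA against *Smad4*. The cells were placed in the pancreas to form primary tumors (10 libraries), in the spleen to form liver metastases (11 libraries) or in the tail vein to form lung metastases (14 libraries). All hosts were nude mice on Dox chow, and tumors grew for 4, 5 or 6 weeks after injection in the order pancreas, liver and lungs. Dox was then withdrawn (labelled Smad4 on, 17 libraries) or continued (labelled Smad4 off, 18 libraries), and cells were collected on day 7 or day 14.

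Primary tumors gave 3 libraries labelled off against 2 labelled on for day 7, and 2 against 3 for day 14. Liver metastases gave 2 against 3 and then 3 against 3, and lung metastases 4 against 2 and then 4 against 4. The Cre of this model is driven by *Ptf1a*, a gene of the pancreatic lineage, and nude hosts lack mature T cells. The sources used here do not say that libraries of a group came from separate mice, so that P values measure the spread between these libraries, which may be technical.

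Cholesterol is built from acetyl-CoA through the mevalonate pathway. HMG-CoA synthase (*Hmgcs1*) acts near its start, and isopentenyl-diphosphate isomerase (*Idi1*) interconverts the isoprenoid building blocks. Squalene synthase (*Fdft1*) commits carbon to sterols, squalene epoxidase (*Sqle*) and lanosterol synthase (*Lss*) form the ring system, lanosterol demethylase (*Cyp51*) removes a methyl group from it, and 7-dehydrocholesterol reductase (*Dhcr7*) carries out a last reduction to cholesterol. *Srebf2* encodes SREBP2, a transcription factor held in the endoplasmic reticulum by SCAP and INSIG proteins while sterols are plentiful. When sterols fall, SREBP2 is cut, enters the nucleus and raises transcription of the enzymes, of genes of lipoprotein uptake and of *Srebf2* itself, so that these genes are commonly read as 1 program. Pancreatic cancer cells are known to use both this synthesis and the uptake of lipoprotein cholesterol.

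In the GRCm38 coordinates of the table, *Hmgcs1* (ENSMUSG00000093930) lies at chr13:119690379-119708260 on the plus strand and *Idi1* (ENSMUSG00000058258) at chr13:8885501-8892451 on the plus strand. *Fdft1* (ENSMUSG00000021273) lies at chr14:63145150-63179578 on the minus strand, *Sqle* (ENSMUSG00000022351) at chr15:59315077-59331192 on the plus strand and *Lss* (ENSMUSG00000033105) at chr10:76531588-76557138 on the plus strand. *Cyp51* (ENSMUSG00000001467) lies at chr5:4081145-4104746 on the minus strand, *Dhcr7* (ENSMUSG00000058454) at chr7:143823145-143848410 on the plus strand and *Srebf2* (ENSMUSG00000022463) at chr15:82147266-82205376 on the plus strand. Only *Sqle* and *Dhcr7* overlap no other annotated gene. *Fdft1* shares 774 bases with *Ctsb*, a highly expressed gene on the opposite strand with 8149 to 42873 counts per library, and *Cyp51* shares 166 bases with *Akap9*. Since the strand setting of the counting is not given in the sources used here, reads in these overlaps may have been counted for the wrong gene or left out, and *Idi1* also has a paralog, *Idi2*, with which it may share reads.

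The promoters of 6 of the 8 genes had an entry in the RefSeq table used here (GRCm38.p6), with 8 start sites among them, and the 250 bases before each start were searched on both strands. The letters TCACCCCA (TGGGGTGA on the other strand), which are those of a well known sterol regulatory element, stood before *Hmgcs1* and *Srebf2*. They were in 2 of the 8 windows of these genes and in 1.34% of all 32851 promoter windows. The letters CCAAT, which read as ATTGG on the other strand and are the core of the site of the factor NF-Y, with which SREBPs act, stood before all 6 genes. By window, they were in 6 of the 8 windows of these genes and in 33.8% of all windows. The motifs share no letters with each other in the windows shown. The stretches below are shown because *Hmgcs1* and *Srebf2* hold both motifs and *Lss* holds CCAAT but not TCACCCCA. They lie outside annotated exons, run 5′ to 3′ on the plus strand, and have the motifs in capitals. *Lss* is at chr10:76531440-76531587, *Hmgcs1* at chr13:119690186-119690350 and *Srebf2* at chr15:82147104-82147180.
Hmgcs1: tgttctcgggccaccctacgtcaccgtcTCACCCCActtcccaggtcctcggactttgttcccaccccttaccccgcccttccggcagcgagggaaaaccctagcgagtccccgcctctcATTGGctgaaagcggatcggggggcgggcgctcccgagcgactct
Srebf2: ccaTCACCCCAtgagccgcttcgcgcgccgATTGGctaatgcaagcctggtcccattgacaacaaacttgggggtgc
Lss: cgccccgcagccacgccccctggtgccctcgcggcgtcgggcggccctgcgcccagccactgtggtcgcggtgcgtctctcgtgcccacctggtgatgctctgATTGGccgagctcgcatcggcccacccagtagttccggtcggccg

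Library totals were 11885461 to 43571007 counts (median 19415320), so that 3 counts correspond to 0.0689 to 0.252 CPM (counts scaled to the size of the library), and the lowest count of any member was 34 for *Idi1* and 346 for the other 7 genes. Intervals and floors of this kind cover counting error only. *Smad4* mRNA went against the labels in every library, as the 17 with the label on held 14.8 to 22.4 CPM and the 18 with the label off 69.9 to 143 CPM, so that every fold change below is of libraries labelled on against libraries labelled off and says nothing of the direction of *Smad4* itself. The liver library 2 labelled off on day 7, the only one labelled paired-end, stood apart, with a summed fibroblast marker level of 35799 CPM against 254.9 to 4309 in the other 10 liver libraries and a summed pancreatic tumor epithelium level (*Krt8*, *Krt18*, *Krt19*, *Epcam*, *Cdh1* and *Sox9*) of 3837 CPM against 11063 to 15045. Over all libraries those epithelial markers summed to 2382 to 7094 CPM in the pancreas and 5484 to 13991 CPM in the lungs. The 8 acinar markers summed to 415.2 CPM in the paired-end library and to 0.144 to 0.616 CPM in the other 10 liver libraries. In the pancreas the acinar sum was 767.4 to 3600.2 CPM. In 10 libraries, 4 of liver and 6 of lungs, the mitochondrial gene *mt-Co3* had counts (12.4 to 48.6 CPM) and in the other 25, among them all of the pancreas, it had none. Results that rest on these libraries are given with and without them.

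All 8 genes were expressed in all 35 libraries. Per length, *Srebf2* stood highest with a median of 42.9 CPM per kilobase of gene model, followed by *Cyp51* (29.2), *Hmgcs1* (22.4), *Fdft1* (21.0), *Sqle* (15.7), *Dhcr7* (4.83), *Lss* (3.91) and *Idi1* (1.39). Ranges of neighbours in this order overlapped. *Hmgcs1* at 14.1 to 37.9 and *Fdft1* at 13.3 to 31.3 CPM per kilobase spanned almost the same levels, as did *Dhcr7* at 2.53 to 9.26 and *Lss* at 2.21 to 6.06. The highest library exceeded the lowest by 2.05-fold for *Srebf2*, the steadiest of the 8, by 2.36-fold for *Fdft1*, 3.65-fold for *Dhcr7* and 3.78-fold for *Sqle*. *Idi1* differed by 11-fold, and its high values were those of the libraries with *mt-Co3* counts, as described with the organs. Levels in CPM below are for comparing 1 gene across libraries, not genes with each other.

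**Figure D1:**
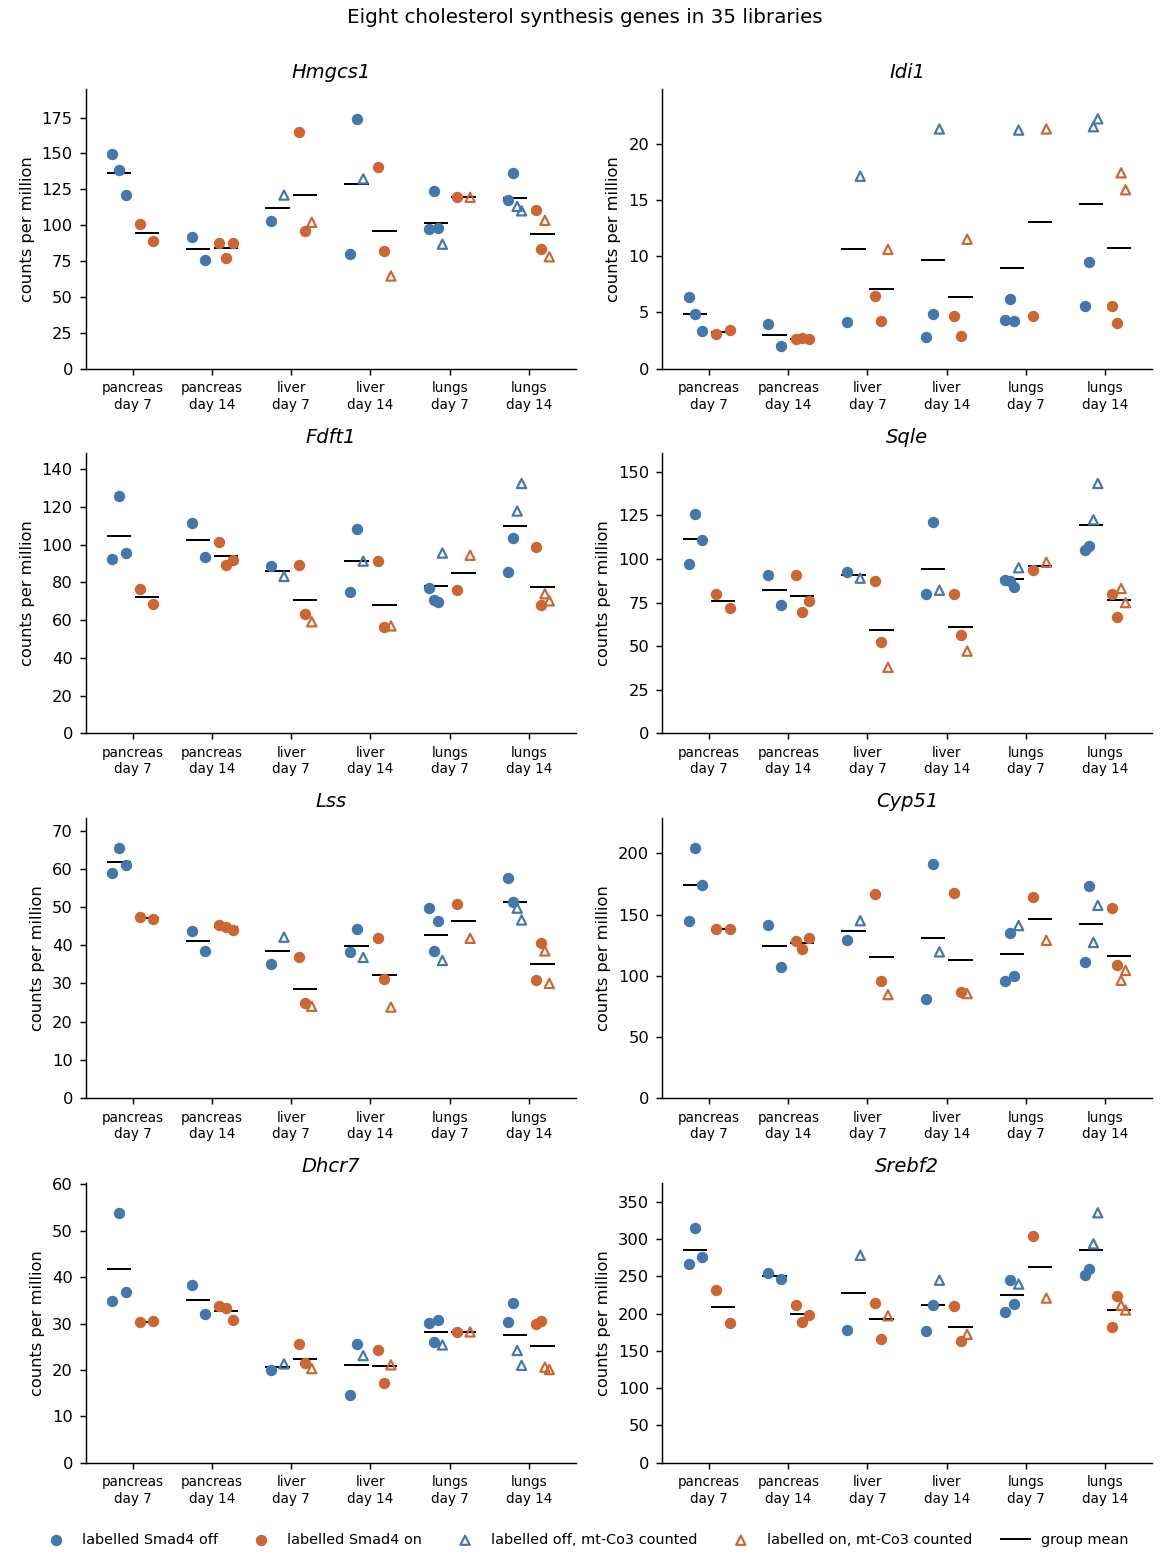
Level of each of the 8 genes in CPM (linear axis from 0) in the 35 libraries, by organ, day and Smad4 label. Each point is 1 library, open triangles are the 10 libraries with *mt-Co3* counts, and black lines are group means. The points of *Sqle* labelled on lie below those labelled off in the pancreas on day 7, the liver on both days and the lungs on day 14, and *Idi1* is above 10 CPM only in triangles.

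The first question of the design is whether the label changes expression within an organ and day. In primary tumors on day 7, all 8 genes had lower means in the libraries labelled on, with log2 differences of -0.57 to -0.32, and for 7 of the 8 the groups did not overlap. None passed an adjusted P value of 0.05 over all genes in edgeR, where 2.24% of all genes tested passed, while 5 of the 8 had an unadjusted P value under 0.05. Groups that did not overlap with labelled on lower were also found for 22.3% of all genes tested. DESeq2 called 10.1% of all genes tested and 4 of the 8, namely *Sqle* (adjusted P = 0.0131), *Hmgcs1* (0.0149), *Lss* (0.0346) and *Srebf2* (0.046). The median log2 difference of the 8 was -0.48, against 0.011 for all genes tested.

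*Sqle*, a control point of the pathway, measured 97.1, 126 and 111 CPM in the pancreas libraries labelled off and 79.8 and 72.1 CPM in those labelled on. The difference was -0.54 ± 0.13 (log2, SE; edgeR adjusted P = 0.0809). *Hmgcs1* measured 149, 138 and 121 CPM against 100.5 and 89.3 CPM (-0.51 ± 0.13, adjusted P = 0.089). In both genes the lowest library labelled off was well clear of the highest labelled on. *Lss* was tighter still, at 58.9, 65.4 and 61.0 CPM against 47.3 and 46.8 CPM (-0.38 ± 0.10, adjusted P = 0.0851). *Srebf2*, which encodes the regulator, measured 266, 315 and 276 CPM against 232 and 187 CPM (-0.44 ± 0.14, adjusted P = 0.134). *Fdft1* ran from 92.4 to 126 CPM against 68.7 to 76.2 CPM, with a difference of -0.52 ± 0.16 (adjusted P = 0.12). *Idi1* was the gene whose groups overlapped, at 3.38 to 6.35 CPM labelled off and 3.06 to 3.45 CPM labelled on.

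The other genes of the pathway were read from lists. All 15 other synthesis enzymes were lower in the same pancreas libraries labelled on, with a median of -0.45, and 1 of them passed. Of 11 uptake and transport genes tested, 5 were lower and 6 higher, and the 1 that passed was *Lrp8*, the gene of a lipoprotein receptor, which fell from between 29.3 and 39.9 CPM to 14.3 and 15.1 CPM (-1.22 ± 0.16, adjusted P = 0.0252). None of the 9 genes of SREBP processing passed in edgeR (2 had an unadjusted P value under 0.05 and 1 passed in DESeq2), with *Insig1* at -0.11 ± 0.14, *Srebf1* at -0.08 ± 0.13 and *Scap* at 0.02 ± 0.14. Markers of other cells moved with the label in these libraries. All 8 acinar markers were lower labelled on (2 passed), with sums of 2098 to 3365 CPM against 767 and 1030 CPM, and 6 of 7 fibroblast markers were higher (2 passed), with sums of 11809 to 16861 CPM against 23308 and 24265 CPM. Their part in the result was not tested, and in bulk samples fewer cells of a type and less RNA per cell cannot be told apart.

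In primary tumors on day 14 the pattern was different. *Srebf2* was the 1 of the 8 genes that passed, where 12.9% of all genes tested did. It fell from 255 and 246 CPM in the libraries labelled off to 211, 189 and 198 CPM in those labelled on (-0.31 ± 0.08, adjusted P = 0.0463). Its groups did not overlap, which was so with labelled on lower for 25.2% of all genes tested. Without library 1 or 2 labelled off, or without library 2 or 3 labelled on, its difference remained between -0.33 and -0.29 but no longer passed (adjusted P = 0.126 to 0.206). The enzymes did not follow. *Sqle* measured 91.0 and 73.8 CPM labelled off and 90.8, 69.7 and 76.2 CPM labelled on (-0.04 ± 0.13), and *Hmgcs1* 91.8 and 75.7 CPM against 87.9, 77.2 and 87.5 CPM (0.03 ± 0.11). *Lss* was on the other side of 0 (0.14 ± 0.09, adjusted P = 0.341), with 43.8 and 38.5 CPM labelled off and 45.4, 44.7 and 44 CPM labelled on, groups that did not overlap with labelled on higher, as for 21.9% of all genes tested. The median of the 8 was -0.06, against 0.016 over all genes.

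The lists were likewise divided on day 14. Among the other synthesis enzymes, *Tm7sf2* (0.62 ± 0.13, adjusted P = 0.0224), which acts late in the pathway, was 1 of the 2 of 15 that passed, both as higher, and over the list 7 differences were positive and 8 negative, with a median of -0.04. *Mylip*, which encodes a ubiquitin ligase that degrades lipoprotein receptors, fell (-0.85 ± 0.21, adjusted P = 0.0404), as did *Srebf1*, the gene of the related factor SREBP1 (-0.32 ± 0.08, adjusted P = 0.0438). *Insig1* was at -0.08 ± 0.12 and *Scap* at -0.13 ± 0.07. In fatty acid synthesis, *Acaca* fell (-0.51 ± 0.09, adjusted P = 0.00831) and *Acss2* rose (0.58 ± 0.11, adjusted P = 0.0156), and of the efflux genes *Abca1* fell (-0.60 ± 0.14, adjusted P = 0.0276) and *Abcg5* rose (2.14 ± 0.52, adjusted P = 0.0338). Depth followed the label here, since the libraries labelled off held 28557488 to 32195795 counts and those labelled on 12200163 to 14255679, and its part in these results was not tested.

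In liver metastases, none of the 8 genes passed on either day, with 0.444% of all genes tested passing on day 7 and 0.0% on day 14 (0 genes in edgeR, 1447 at an unadjusted P value under 0.05 and 400 in DESeq2). *Sqle* was the 1 gene whose groups did not overlap on day 7 and again on day 14, where labelled on was lower without overlap for 18.8% and 6.52% of all genes tested. On day 7, *Sqle* measured 92.5 and 89.0 CPM labelled off and 87.2, 52.3 and 37.9 CPM labelled on (-0.69 ± 0.38, adjusted P = 0.308). On day 14, it measured 80.0, 121 and 82.1 CPM labelled off and 79.9, 56.3 and 47.2 CPM labelled on (-0.66 ± 0.25, adjusted P = 0.47). On both days 1 library labelled on stood close to those labelled off (79.9 against 80.0 CPM on day 14), and the other 2 were low. *Lss* had a similar layout with overlapping groups, at 35 and 42.1 CPM against 36.8, 24.8 and 24.0 CPM on day 7 and 38.1, 44.3 and 36.8 CPM against 42.0, 31.1 and 23.8 CPM on day 14.

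*Dhcr7*, the last enzyme of the group, was near 0 between the labels in liver, at 0.04 ± 0.21 on day 7 and -0.05 ± 0.24 on day 14. *Hmgcs1* was at 0.03 ± 0.30 and -0.46 ± 0.36, *Cyp51* at -0.32 ± 0.34 and -0.24 ± 0.38, *Fdft1* at -0.36 ± 0.24 and -0.46 ± 0.24, and *Srebf2* at -0.32 ± 0.25 and -0.25 ± 0.18. The members' median was -0.34 on day 7, against -0.059 over all genes, and -0.40 on day 14, against -0.002. Without the paired-end library the day 7 median was -0.12, with *Sqle* at -0.74 and *Srebf2* at 0.01. Within the libraries without *mt-Co3* counts it was -0.03, with *Sqle* at -0.49. Each of these fits left 1 library labelled off. The paired-end library is 1 of the 2 liver libraries labelled off on day 7, so that it weighs on that group for every gene of the set. Markers of other cells moved with the label in liver as well. On day 7 all 9 hepatocyte markers were higher labelled on without overlap, with a median of 3.19 and sums of 1.9 and 17.8 CPM labelled off (the lower sum and 3 markers at 0 in the paired-end library) against 61.3 to 151.2 CPM. All 6 immune markers were also higher on day 7, with sums of 17.2 and 26.5 CPM against 40.2 to 79.8 CPM, and all 7 fibroblast markers lower, with overlap. On day 14 the sums were 22.6 to 53.1 CPM against 37.6 to 44.3 CPM for hepatocyte markers, of which 5 of 9 were higher, and 33.5 to 80.8 CPM against 77.5 to 166.0 CPM for the immune markers, of which 6 of 6 were higher. None of these markers passed in edgeR. On day 7, 8 hepatocyte, 3 immune and 4 fibroblast markers had an unadjusted P value under 0.05 and 6, 3 and 4 passed in DESeq2, and on day 14 0 did in either way. Over all genes tested on day 7, 4340 of 16007 had an unadjusted P value under 0.05 and 3775 passed in DESeq2, whereas 0 of the 8 members did in either way. The part of the markers in the differences of the 8 genes was not tested.

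In lung metastases, the days lay on opposite sides of 0. On day 7 all 8 genes had positive differences, from 0.03 ± 0.15 for *Dhcr7* to 0.55 ± 0.88 for *Idi1*, with a median of 0.19 against 0.003 over all genes. None passed in edgeR, 0 had an unadjusted P value under 0.05 and 0 passed in DESeq2, beside 0.0% of all genes tested (0 in edgeR, 793 at an unadjusted P value under 0.05 and 108 in DESeq2). The groups of all 8 overlapped, whereas they did not overlap with labelled on higher for 5.0% of all genes tested and with labelled on lower for 6.67%. *Sqle* measured 87.7, 87.4, 84.0 and 95.0 CPM labelled off and 93.5 and 98.1 CPM labelled on, so that the highest library labelled off lay between the 2 labelled on.

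On day 14 all 8 genes were lower in the lung libraries labelled on, at -0.66 to -0.13, with a median of -0.48 against -0.004 over all genes. *Sqle* measured 105, 107, 122 and 143 CPM labelled off and 80.0, 66.9, 83.1 and 75.0 CPM labelled on (-0.66 ± 0.14, adjusted P = 0.198). *Lss* measured 57.5, 51.2, 49.7 and 46.6 CPM against 31.0, 40.7, 38.5 and 30.0 CPM (-0.55 ± 0.13, adjusted P = 0.221), and *Srebf2* 252, 259, 294 and 335 CPM against 182, 224, 211 and 205 CPM (-0.48 ± 0.14, adjusted P = 0.275). In these 3 genes every library labelled on lay below every library labelled off, which was so for 3.1% of all genes tested. None of the 8 passed in edgeR, where 0.0271% of all genes tested did, with 5 of the 8 at an unadjusted P value under 0.05. DESeq2 called 2.6% of all genes tested, and among the 8 the same 3 genes, *Sqle* (adjusted P = 0.00516), *Lss* (0.0136) and *Srebf2* (0.0473).

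Lung libraries of day 14 with the same replicate number deviated together. With the number as a block *Sqle* passed (-0.65, adjusted P = 0.0391), with *Lss* at an adjusted P value of 0.0717 and *Srebf2* at 0.0941. With the number as a block, 201 genes passed in all, against 4 without it. The ratio of labelled on to labelled off for *Sqle* was 0.761, 0.624, 0.679 and 0.523 in the 4 numbers. *Sqle*, *Hmgcs1*, *Lss*, *Dhcr7* and *Srebf2* were lower in 4 of 4 numbers, and *Idi1*, *Fdft1* and *Cyp51* in 3 of 4, with number 1 at 1.15 for *Fdft1* and 1.4 for *Cyp51*. Numbers 3 and 4 had *mt-Co3* counts under both labels and numbers 1 and 2 under neither, so that the number and these counts cannot be told apart here. With a covariate for *mt-Co3* counts in place of the number, *Sqle* was again the 1 member that passed (-0.65, adjusted P = 0.021). Over all genes tested, 293 of 15241 passed with this covariate.

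**Figure D2:**
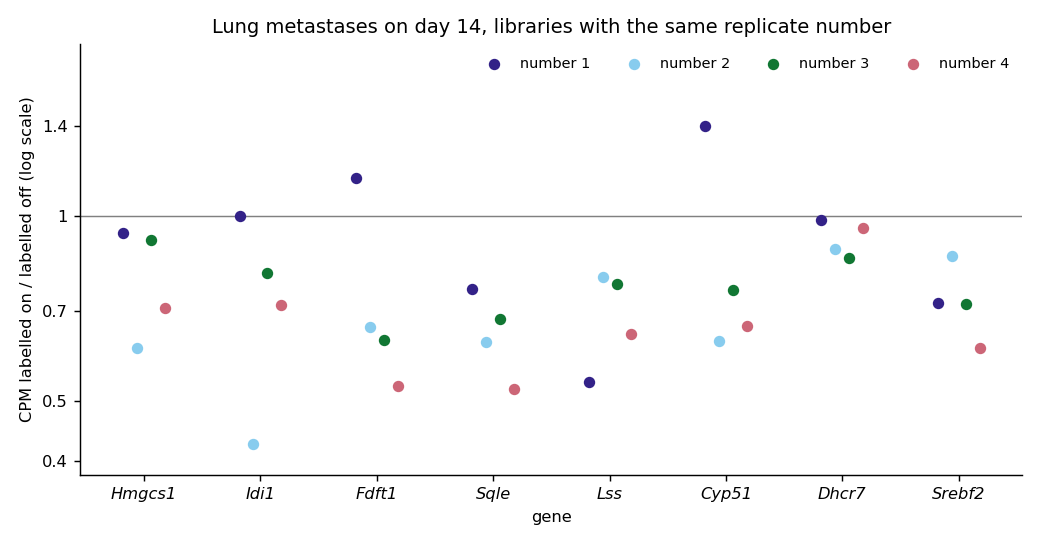
CPM of libraries labelled on divided by CPM of libraries labelled off (log axis) for lung metastases on day 14, with 1 point for each of the 4 replicate numbers, by gene. The 4 points of *Sqle* lie between 0.523 and 0.761 and those of *Srebf2* between 0.611 and 0.862, whereas number 1 lies above 1 for *Fdft1* and *Cyp51*.

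In the lists, 0 of 240 tests of 5 lists over the 4 label comparisons of liver and lungs passed in edgeR, 45 had an unadjusted P value under 0.05 and 25 passed in DESeq2. Over all genes, the unadjusted P value was under 0.05 for 4340 of 16007 and 1447 of 14947 in liver (day 7, day 14). In lungs it was so for 793 of 15193 and 1485 of 14751. DESeq2 called 3775, 400, 108 and 384 of all genes in the same order. On day 14 in the lungs, 13 of the 15 other synthesis enzymes were lower labelled on, with a median of -0.35. *Insig1*, a SREBP2 target that closes the feedback loop, was at -0.86 ± 0.23 (adjusted P = 0.251) and lower in 4 of 4 numbers. *Srebf1* was at -0.40 ± 0.15 (adjusted P = 0.391) and *Scap* at -0.27 ± 0.16 (adjusted P = 0.634). All 6 immune markers (53.8 to 159.8 CPM labelled off, 105 to 358 CPM labelled on in sum) and all 7 lung epithelium markers (241 to 444 CPM against 323 to 779 CPM) were higher labelled on, none passed, and their part in the result was not tested.

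**Figure D3:**
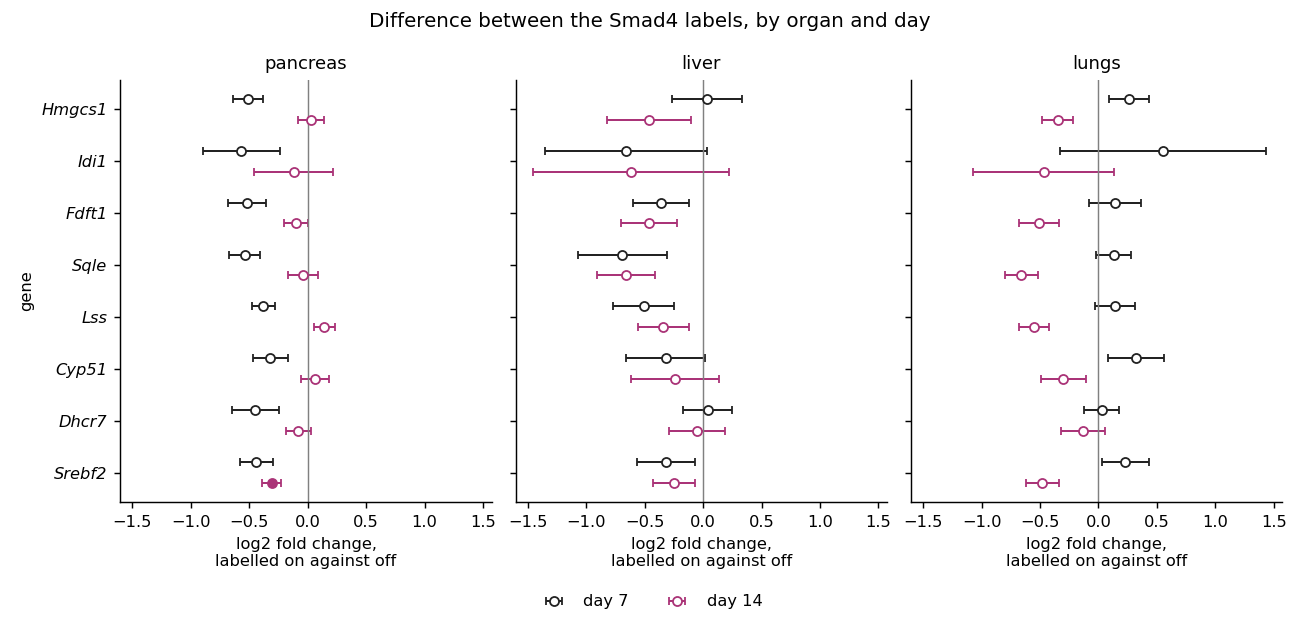
Log2 fold change of libraries labelled on against labelled off with its SE (bars) from edgeR, for each gene, by organ and day. Filled points passed an adjusted P value of 0.05 over all genes and open points did not. Only *Srebf2* in the pancreas on day 14 is filled, all 8 points lie left of 0 in the pancreas on day 7 and in liver and lungs on day 14, and all 8 lie right of 0 in the lungs on day 7.

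Over the 6 comparisons of the label, *Sqle* was lower labelled on in 5 and its groups did not overlap in 4 of these, which was so with labelled on lower in 4 or more comparisons for 3.16% of the 13327 genes tested in all 6. *Srebf2* was lower in 5 with groups apart in 3 (3 or more for 9.12% of these genes), and *Lss* in 4 with groups apart in 2 (2 or more for 22.8%). *Idi1* was lower in 5 but its groups overlapped in all 6. The comparisons use separate libraries, but each member was read with the same genes, and no test was made over the 6 together.

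The second question is whether metastases differ in their response to the label. Between liver and lungs, the difference of the responses did not pass for any of the 8 genes on day 7 or day 14, where 1.86% and 0.0% of all genes tested passed (for day 14, 0 in edgeR, 478 at an unadjusted P value under 0.05 and 4 in DESeq2). Of the 16 tests on the 8 genes, 0 had an unadjusted P value under 0.05 and 0 passed in DESeq2. On day 7, *Sqle* responded lower in liver than in lungs by -0.77 ± 0.38 (adjusted P = 0.285) and *Lss* by -0.59 ± 0.30 (adjusted P = 0.301), and the median of the 8 was -0.54. On day 14, *Sqle* was at 0.00 ± 0.28 and the median was 0.07. Among the lists, *Soat1*, which esterifies cholesterol for storage, was the 1 of 12 efflux and esterification genes that passed on day 7. Its response was lower in liver (-2.44 ± 0.43, adjusted P = 0.0377), where 3 of the 12 were negative and 9 positive. *Acss2*, which makes acetyl-CoA from acetate, responded higher (1.34 ± 0.26, adjusted P = 0.041). Both calls rest on 2 liver libraries labelled off, of which 1 is the paired-end library. With the replicate block 0 of all genes tested passed in the response of day 7.

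The days were then compared. Averaged over both labels, none of the 8 genes passed between day 14 and day 7 in any organ, with 2 of 24 tests at an unadjusted P value under 0.05 and 0 passing in DESeq2. Over all genes, 0.0057% passed in the pancreas and 0.0% in liver and in lungs (0 in edgeR in both, 1559 and 1122 at an unadjusted P value under 0.05, and 84 and 21 in DESeq2). In the pancreas, *Lss* was lower on day 14 without overlap, at 38.5 to 45.4 CPM against 46.8 to 65.4 CPM (-0.33 ± 0.14, adjusted P = 0.37), as were 3.99% of all genes tested, and *Hmgcs1* was at -0.44 ± 0.19 (adjusted P = 0.393). In liver and lungs the 7 genes other than *Idi1* lay between -0.09 and 0.18.

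Because the label differences of the days had opposite signs in the lungs, the change of the label difference from day 7 to day 14 was also tested, a comparison added after seeing the data. It did not pass for any of the 8 genes, with 8 of 24 tests at an unadjusted P value under 0.05 and 1 passing in DESeq2. Over all genes, 0.0596% passed in the pancreas and 0.0% in liver and in lungs (0 in edgeR in both, 1310 and 953 at an unadjusted P value under 0.05, and 139 and 9 in DESeq2). In the lungs the change was negative for all 8 genes, with *Sqle* at -0.78 ± 0.20, *Srebf2* at -0.71 ± 0.22 and *Lss* at -0.69 ± 0.21 (adjusted P = 0.808 for each). In the pancreas it was positive for all 8, with *Hmgcs1* at 0.56 ± 0.17 (adjusted P = 0.195) and *Lss* at 0.54 ± 0.12 (adjusted P = 0.12), the 1 of the 8 that DESeq2 called (adjusted P = 0.0352), beside 2.64% of all genes tested.

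The third question is how the organs differ, over both labels and days. Here *Dhcr7*, *Lss*, *Srebf2*, *Sqle* and *Idi1* passed in 1 or more of 3 comparisons, whereas *Hmgcs1*, *Fdft1* and *Cyp51* passed in none. Between liver and pancreas 3 of the 8 passed, where 46.4% of all genes tested did. Between lungs and pancreas 2 of the 8 passed (48.2% of all genes) and between liver and lungs 4 of the 8 (20.4% of all genes). The shares of the members were below those of all genes in both comparisons with the pancreas. Within the 18 libraries labelled off none of the 4 calls between liver and lungs held, with *Sqle* at -0.13, *Lss* at -0.24, *Dhcr7* at -0.39 and *Srebf2* at -0.19. Fewer genes passed in general there, 1030 of 16606 tested, against 3571 of 17547 over both labels. Organ cannot be told apart from the route of injection or the weeks of growth.

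*Dhcr7* was lower in liver than in pancreas without overlap, which was so for 0.861% of all genes tested. Its lowest, median and highest levels were 30.4, 33.6 and 53.9 CPM in the 10 pancreas libraries, 14.7, 21.3 and 25.5 CPM in the 11 liver libraries and 20.1, 28.1 and 34.5 CPM in the 14 lung libraries. The order was pancreas, lungs, liver. The log2 differences of *Dhcr7* were -0.71 ± 0.11 in liver against pancreas (adjusted P = 1.2e-05), -0.35 ± 0.11 in lungs against pancreas (adjusted P = 0.00899) and -0.36 ± 0.11 in liver against lungs (adjusted P = 0.0161), and all 3 passed. In the lungs its mean was 23.3 ± 3.19 CPM (SD, n = 6) in the libraries with *mt-Co3* counts and 30.0 ± 2.40 CPM (SD, n = 8) in those without. In liver its mean was 21.4 ± 1.18 CPM (SD, n = 4) with these counts and 21.2 ± 4.24 CPM (SD, n = 7) without. Within the 25 libraries without *mt-Co3* counts, liver against pancreas was at -0.72 (adjusted P = 5.79e-05) and liver against lungs at -0.48 (0.00686), whereas lungs against pancreas was at -0.24 and did not pass (0.0903).

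*Lss* was lower in liver than in both other organs, with -0.48 ± 0.10 against pancreas (adjusted P = 0.000194) and -0.33 ± 0.09 against lungs (adjusted P = 0.00934). Its lowest, median and highest levels were 38.5, 46.1 and 65.4 CPM in pancreas, 23.8, 36.8 and 44.3 CPM in liver and 30.0, 44.1 and 57.5 CPM in lungs. Pancreas and lungs did not differ beyond their spread (-0.15 ± 0.09, adjusted P = 0.185). *Srebf2* was lower in liver than in lungs (-0.26 ± 0.08, adjusted P = 0.0276), and its difference from pancreas did not pass (-0.21 ± 0.09, adjusted P = 0.0593). Without the paired-end library *Srebf2* passed against pancreas as well (-0.29, adjusted P = 0.00812), and within the libraries without *mt-Co3* counts it passed against both (-0.31, adjusted P = 0.0036, and -0.34, adjusted P = 0.00559). Its call against lungs was lost without any 1 of 4 libraries, namely liver day 7 labelled off 1 (adjusted P = 0.082) or on 2 (0.0558), lungs day 7 labelled on 1 (0.099) and liver day 14 labelled off 1 (0.054).

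*Sqle* was lower in liver than in lungs (-0.33 ± 0.11, adjusted P = 0.0345), at 37.9, 80.0 and 121 CPM (lowest, median, highest) in liver and 66.9, 90.6 and 143 CPM in lungs. The call was lost when any 1 of 12 of the 35 libraries was left out (adjusted P = 0.0508 to 0.0642), among them the paired-end library. Within the libraries without *mt-Co3* counts the difference was -0.10 (adjusted P = 0.573). With these counts *Sqle* ran from 37.9 to 89.0 CPM in liver and from 75.0 to 143 CPM in lungs, and without them from 52.3 to 121 CPM and from 66.9 to 107 CPM.

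**Figure D4:**
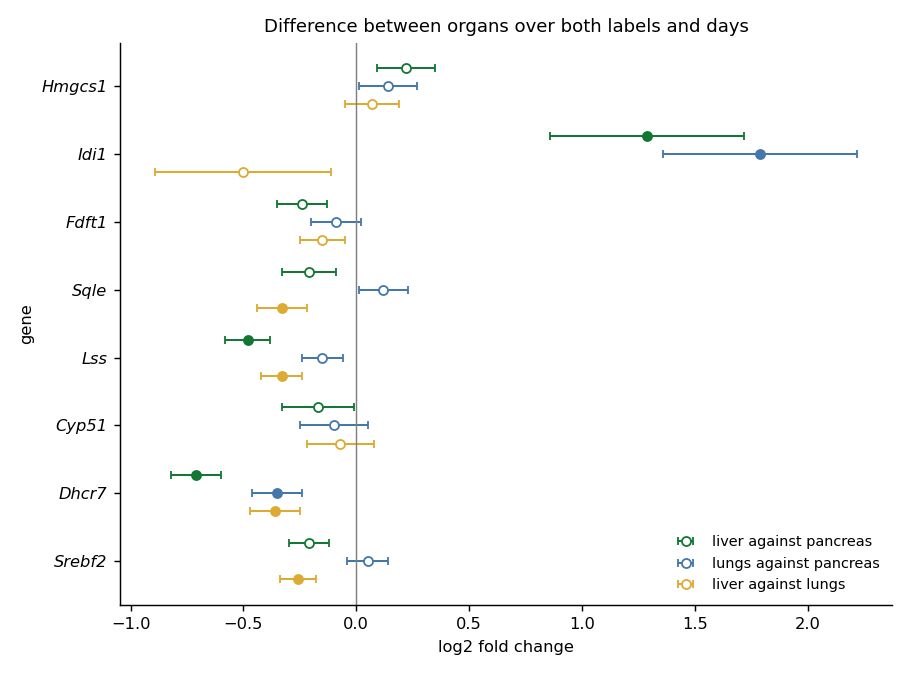
Log2 fold change with its SE (bars) between organs, averaged over both labels and days in 1 edgeR fit of 35 libraries, for each gene. Filled points passed an adjusted P value of 0.05 over all genes. *Dhcr7* is filled in all 3 comparisons, *Lss* in both with liver, *Sqle* and *Srebf2* in liver against lungs, and *Idi1* in both against pancreas with the widest bars.

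*Idi1* was the only member that passed as higher in the metastases, with 1.29 ± 0.43 in liver (adjusted P = 0.0168) and 1.79 ± 0.43 in lungs (adjusted P = 0.00128) against pancreas. This followed the libraries with *mt-Co3* counts. In the lungs *Idi1* measured 15.9 to 22.2 CPM in the 6 libraries with these counts and 4.04 to 9.45 CPM in the 8 without, in liver 10.6 to 21.3 CPM in 4 and 2.79 to 6.42 CPM in 7, and in pancreas 2.02 to 6.35 CPM, all without. No library with *mt-Co3* counts had a level in the range of those without. Within the 25 libraries without these counts the difference was 0.66 in lungs against pancreas (adjusted P = 0.0118) and 0.35 in liver against pancreas (adjusted P = 0.166). In the fit of all libraries the liver call was lost without pancreas day 7 labelled on 1 (adjusted P = 0.0543), liver day 7 labelled off 2 (0.96, 0.0801), pancreas day 14 labelled off 2 (0.0613) or liver day 14 labelled off 3 (0.0555). What these libraries share beyond the counts is not given in the labels.

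**Figure D5:**
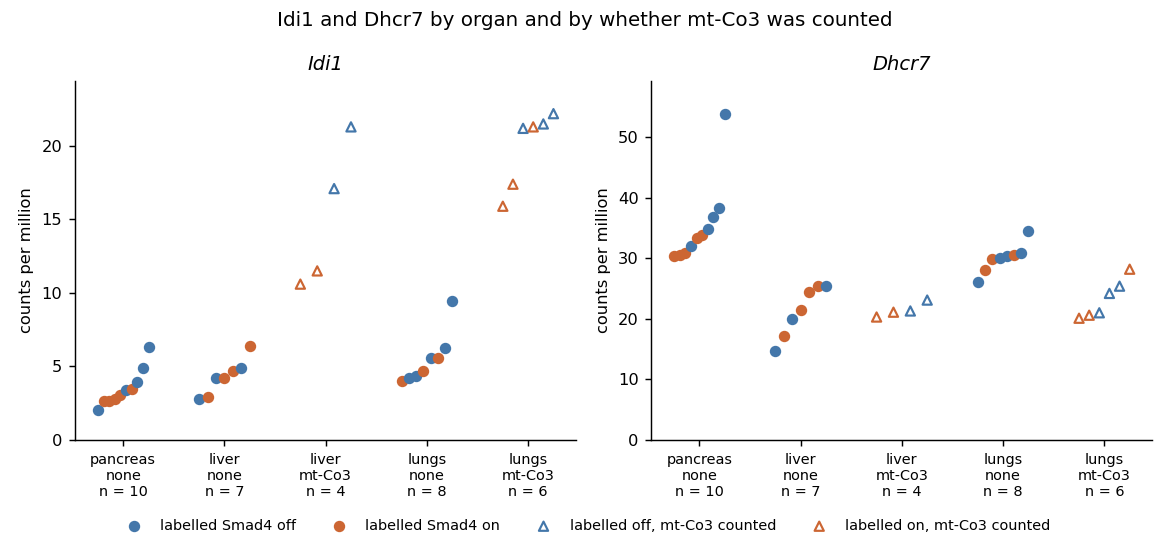
Levels of *Idi1* and *Dhcr7* in CPM (linear axis from 0) by organ, in libraries without ("none") and with ("*mt-Co3*") counts of *mt-Co3*, with the number of libraries under each column. Each point is 1 library, sorted by level. *Idi1* lies between 10.6 and 22.2 CPM in all 10 libraries with these counts and between 2.02 and 9.45 CPM in all 25 without. Without them *Dhcr7* lies at 14.7 to 25.5 CPM in liver and 26.1 to 34.5 CPM in lungs. With them the ranges overlap, at 20.3 to 23.1 CPM in liver and 20.1 to 28.2 CPM in lungs.

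Other genes of the pathway differed between organs in both directions. Of the 15 other synthesis enzymes, 6 passed between liver and pancreas, 3 between lungs and pancreas and 0 between liver and lungs (0 in edgeR, 0 at an unadjusted P value under 0.05 and 0 in DESeq2). Over all genes tested, 46.4%, 48.2% and 20.4% passed in these 3 comparisons. *Lbr* (0.44 ± 0.09, adjusted P = 0.000185) was higher and *Nsdhl* (-0.52 ± 0.12, adjusted P = 0.000963) and *Fdps* (-0.75 ± 0.29, adjusted P = 0.0352) lower in liver than in pancreas. *Insig1* and *Srebf1* passed in none of the 3 comparisons, and *Scap* rose in liver against pancreas (0.31 ± 0.10, adjusted P = 0.0147).

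Of the 12 uptake and transport genes 6, 6 and 4 passed in the 3 comparisons, beside 46.4%, 48.2% and 20.4% of all genes tested. *Mylip* was lower in lungs than in pancreas (-3.62 ± 0.34, adjusted P = 1.05e-08). Of the 12 efflux and esterification genes 10, 6 and 6 passed, led by *Abcg5* (4.39 ± 0.47, adjusted P = 5.95e-08) and *Cyp27a1* (2.45 ± 0.27, adjusted P = 6.71e-08) in liver against pancreas, and *Nr1h3*, the gene of the sterol receptor LXR alpha, rose in lungs (1.43 ± 0.15, adjusted P = 3.95e-08). Markers of other cells differed between organs as well. All 8 acinar and all 7 fibroblast markers passed as lower in liver and in lungs than in pancreas, with fibroblast sums of 8788 to 24265 CPM in pancreas and 159.5 to 1989 CPM in lungs, and 9 of 9 hepatocyte markers passed as higher in liver. Their part in the organ differences was not tested.

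The 8 genes did not all vary together over the 35 libraries. The Pearson correlation of each gene's log2 CPM with the mean of the other 7 was 0.79 for *Sqle* and for *Srebf2*, 0.73 for *Fdft1*, 0.68 for *Cyp51*, 0.60 for *Hmgcs1*, 0.54 for *Lss*, 0.29 for *Dhcr7* and 0.06 for *Idi1*. Within the 25 libraries without *mt-Co3* counts it was 0.59 for *Dhcr7* and 0.46 for *Idi1*. These are descriptions, since the libraries share organ, depth and composition. Among the 17539 other genes ranked, those most like the mean of the 8 were *Aacs* (0.83), *Fasn* (0.79), *Fhl3* (0.77), *Insig1* (0.76) and *Mvd* (0.75). With *Idi1* left out of the mean, the 5 most alike included *Lrp8* (0.84), *Aacs* (0.79) and *Hsd17b7* (0.79), where the values to the second decimal do not order *Aacs* and *Hsd17b7*.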

How the data were processed

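RNA was extracted from sorted cells, selected for poly(A) and made into stranded single-end libraries. Per the labels and the methods of the study, the authors trimmed reads with Trimmomatic 0.36, aligned them to GRCm38 with STAR 2.5.3a and counted them with featureCounts 1.6.3, with FastQC 0.11.5 for quality. The deposited values are whole-number counts for 53465 genes in 35 libraries, not normalized, and 1 liver library is labelled paired-end. The strand setting and the treatment of multimapping reads are not given in the sources used here. Groups came from the labels of organ, day and *Smad4* status, which were kept although *Smad4* mRNA went against them.

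Genes were kept by filterByExpr at a count of 10 and a total of 15, libraries were scaled by TMM, and edgeR's quasi-likelihood test (version 4.0.16 under R 4.3.3) was run with robust estimates, with Benjamini-Hochberg adjustment over all genes tested at 0.05. The label was tested in each organ and day on its own, the response of liver against lungs by the interaction, and organs and days in 1 fit of 12 groups. CPM values are counts scaled to the library total times its TMM factor, and correlations used log2 CPM with a pseudocount of 0.5. The script was tested on simulated data. The members and lists were chosen with earlier results of these data known, so that counts over them are descriptions. Named genes were the 8 members, up to 4 genes of each list with the lowest adjusted P value under 0.05 in a comparison, *Insig1*, *Srebf1* and *Scap*, and the 5 genes most like the members' mean. Some genes that meet this rule are not reported here. The marker lists were those of hepatocytes, acinar cells, lung epithelium, fibroblasts, immune cells, endothelium and pancreatic tumor epithelium.

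Deviations of same-numbered libraries correlated at 0.47, 0.51, 0.59 and 0.53 in the lungs on day 14, and the labels do not say what a number marks. Elsewhere only number 3 in liver on day 14 reached such a value (0.54). Alternatives were DESeq2 1.42.0, its size factors, a stricter filter (10 counts or more in each library) or none, the replicate number as a block, a covariate for *mt-Co3* counts, a single fit of all 12 groups, libraries of 1 label only, a fold over 2, and leaving out the paired-end library or each library in turn. The fits without the libraries with *mt-Co3* counts and the change of the label difference between days were added after seeing the data. Promoter sequences are from RefSeq (GRCm38.p6). Python 3.11.15 and matplotlib 3.10.9 were used for tables and plots. The columns of the table other than counts (coordinates and names) were used for positions only.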

Additional observations from a re-analysis of the deposited data

Results flagged for a closer look

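*Idi1* in the lung libraries labelled Smad4 off on day 7 was 21.2 CPM in library 4 and 4.22 to 6.22 CPM in the other 3. The gap to the nearest library took 0.882 of the range of the group, above the critical value of Dixon's test for 4 libraries. The library is 1 of the 10 with *mt-Co3* counts. In all, 24 groups of 4 libraries, 1 for each gene in each of 3 lung groups, were tested in this way, and chance alone flags about 1 in 20.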

How the results depend on the processing

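No member that passed changed direction under any alternative run. The medians of the 8 genes moved by less than the spread between replicates (0.22) except in liver on day 7 (-0.12 without the paired-end library, -0.03 without the libraries with *mt-Co3* counts), between the days in the lungs (0.31 within libraries labelled off, -0.33 within those labelled on), in the response of day 7 (-0.8 against -0.54 without liver day 7 labelled on 1) and in the change of the label difference in liver (-0.21 against 0.01 without liver day 14 labelled on 1). Medians near 0 took either sign over the alternatives, at -0.19 to 0.13 in the pancreas on day 14, -0.16 to 0.05 between lungs and pancreas, -0.11 to 0.1 and -0.33 to 0.31 between the days in liver and lungs, -0.12 to 0.22 in the response of day 14 and -0.21 to 0.12 in the change of the label difference in liver. *Srebf2* in liver on day 7, which did not pass, was at -0.32, and at 0.01 without the paired-end library. The cause was not tested for these or for the following. In the pancreas on day 7, 0 of the 8 genes passed, 4 with DESeq2 and 3 without a filter. Over all genes tested these fits called 323 of 14439, 1454 of 14439 and 1523 of 26099. In the pancreas on day 14, 1 passed, and 0 with the replicate block, in a single fit of all groups or at a fold over 2. Of all genes, 1837 of 14234 passed, and 1083 of 14709, 16 of 17547 and 661 of 14234 in these alternatives. In the lungs on day 14, 0 passed, 3 with DESeq2, 1 with the covariate for *mt-Co3* counts and 1 with the replicate block. Of all genes, 4 of 14751 passed, and 384 of 14751, 293 of 15241 and 201 of 15782 in these alternatives. Between liver and pancreas 3 passed, 1 at a fold over 2, beside 8148 and 3672 of all 17547 genes tested. Between lungs and pancreas 2 passed, and 1 at a fold over 2, within libraries without *mt-Co3* counts, within those labelled off or within those labelled on. Of all genes, 8454 of 17547 passed, and 3822 of 17547, 9058 of 17785, 5640 of 16606 and 4483 of 16751 in these alternatives. Between liver and lungs 4 passed, 1 without a filter, 0 within libraries labelled off and 0 at a fold over 2. Leaving out each library in turn gave 0 to 1 in the pancreas on day 14 (0 without library 1 or 2 labelled off or library 2 or 3 labelled on), 2 to 6 between liver and pancreas (6 without liver day 7 labelled on 1, and 5 without lungs day 7 labelled off 1, 3 or 4 or on 1, or liver day 14 labelled on 1), 2 in each case between lungs and pancreas, and 2 to 4 between liver and lungs (2 without liver day 7 labelled on 2, lungs day 7 labelled on 1 or liver day 14 labelled off 1).

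Outside the lungs on day 14, same-numbered libraries correlated at -0.12 and -0.22 (day 7) and 0.04 and 0.06 (day 14) in the pancreas. In liver they correlated at 0.28 and -0.29 (day 7) and 0.08, 0.09 and 0.54 (day 14), and lung libraries of day 7 had 0.37 and -0.31. The 0.54 was that of number 3, whose libraries had *mt-Co3* counts under both labels. With the replicate block *Srebf2* was at -0.32 in the pancreas on day 14, and the block changed no other call on the 8 genes than this one and *Sqle* in the lungs on day 14.

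Counts over all genes moved more. For the label, DESeq2 called 1454 genes against 323 in the pancreas on day 7, 3775 against 71 in liver on day 7, 400 and 108 against 0 in liver on day 14 and lungs on day 7, and 384 against 4 in lungs on day 14. It called 2088 against 305 and 4 against 0 for the responses, 133, 84 and 21 against 1, 0 and 0 for the days, and 399, 139 and 9 against 9, 0 and 0 for the change between days, each in the order pancreas, liver and lungs. With no filter, 1523, 3102, 989, 7, 13 and 29 genes passed in the label comparisons (pancreas, liver and lungs, day 7 before day 14), 462 and 1210 in the response of day 7 and the change in the pancreas, and with at least 10 counts in every library 355 in liver on day 7 and 2319 against 3571 between liver and lungs. The block gave 0, 1083 and 0 in the pancreas on days 7 and 14 and liver on day 7 and 0 in the response of day 7, and a single fit gave 47, 16, 4350, 341, 18 and 23 in the label comparisons and 2382 in that response. The covariate gave 1139 in liver on day 7 and 293 in lungs on day 14. Without the paired-end library or the libraries with *mt-Co3* counts, liver on day 7 kept 1 library labelled off. Counts of genes passing there and in the response of day 7 are therefore not given for these fits. Between liver and lungs 6160 passed without the libraries with *mt-Co3* counts. Within libraries labelled off 2416 passed between liver and pancreas and 1030 between liver and lungs, and within those labelled on 4483 between lungs and pancreas.

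Groups of 2 to 4 libraries limit what can be called, and the levels of *Idi1*, with counts down to 34, are the least precise.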
